A study of Mus musculus with 8 samples.

Results

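The genes described here are 9 imprinted genes of the mouse, out of 32285 genes in the count tables: Meg3, Rian, Mirg, Peg3, Zim1, Nnat, Snhg14, Plagl1 and Grb10. They were chosen by name, with earlier results of these data known, and all 9 were found in the tables. Their UMI counts (unique molecular identifiers, 1 per captured RNA molecule) were followed across cell classes, brain regions and ages in single nuclei of C57BL/6JN mice, an inbred laboratory strain. The tissue was anterior hippocampus or caudate putamen from the left hemisphere, at 3 or 21 months of age, with 2 libraries in each of the 4 groups of region and age. By design, nuclei of a male and a female, matched in age and mixed in equal shares, made up each library. The recovered shares were not equal and are given below. Nuclei were sorted on a DNA dye, and the 10x v3.1 kit was used. No group carried a transgene or received a treatment.

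An imprinted gene is transcribed mainly from the copy inherited from one parent, under the control of DNA methylation set in the germ line. Imprinted genes lie in clusters, many of them are active in the brain, and loss of one cluster, that around Snhg14, causes Prader-Willi or Angelman syndrome in humans. Meg3, Rian and Mirg are noncoding RNAs read from the maternal copy of the Dlk1-Dio3 domain, and they host small nucleolar RNAs and microRNAs. Snhg14 is a very long paternal noncoding RNA, the host of clustered small nucleolar RNAs, and in neurons it runs antisense into Ube3a. Peg3, a paternal zinc-finger gene, lies next to Zim1, a maternal one. Nnat (neuronatin), read from the paternal copy, encodes a small membrane proteolipid and sits in an intron of Blcap. Plagl1, also called Zac1, encodes a paternal zinc-finger transcription factor. Grb10 encodes an adaptor that binds insulin and growth factor receptors and is read from the maternal copy in most tissues but from the paternal copy in neurons. The strain is inbred, so the parental copies carry the same sequence and the parent of origin was not measured.

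In mm10 (GRCm38), Meg3 spans chr12:109541001-109571726, Rian chr12:109603940-109661716 and Mirg chr12:109729764-109749460, all on the plus strand. On chromosome 7 and the minus strand lie Zim1 (chr7:6671269-6696450), Peg3 (chr7:6703892-6730431) and Snhg14 (chr7:59307924-59975759). Nnat lies at chr2:157560078-157562522 (plus), Plagl1 at chr10:13060504-13131694 (plus) and Grb10 at chr11:11930508-12038683 (minus). The end of Snhg14 overlaps Ube3a on the other strand, and all of Nnat lies within Blcap on the other strand. Whether the counting used strand is not given in the sources used here, so reads from these overlaps cannot be assigned with certainty.

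The 3 noncoding RNAs of the Dlk1-Dio3 domain are the hosts of 35 mature microRNAs in RefSeq (GRCm38.p6), with 3 in Meg3, 6 in Rian and 26 in Mirg. The microRNAs were not measured, because the libraries captured polyadenylated RNA, and the sequences below show what the host transcripts carry. The first 5 are examples from each host, and the last 2 are the only pair of the 35 that share a seed. Capitals mark the seed, bases 2 to 8 from the 5′ end, and each line reads 5′ to 3′.
mmu-miR-770-5p (in Meg3): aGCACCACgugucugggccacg
mmu-miR-370-3p (in Rian): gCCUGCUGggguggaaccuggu
mmu-miR-382-5p (in Mirg): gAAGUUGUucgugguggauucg
mmu-miR-134-5p (in Mirg): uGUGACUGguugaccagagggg
mmu-miR-410-3p (in Mirg): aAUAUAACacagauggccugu
mmu-miR-453 (in Mirg): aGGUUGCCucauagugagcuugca
mmu-miR-496a-5p (in Mirg): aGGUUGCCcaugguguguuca

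A promoter of Meg3 is shown because the results return to Meg3 in neurons, glia and both regions. RefSeq gives 2 starts of Meg3. The window of the first runs from 250 bases before to 50 bases after the RefSeq start, at chr12:109540746-109541045 on the plus strand of GRCm38.p6, and it holds 13 CpG dinucleotides. That of the second, at chr12:109545148-109545447, holds 1 CpG and is not shown. Capitals mark the only match in either window to TGCCGC, the methylated hexamer that ZFP57 binds at imprinting control regions, searched on both strands (its reverse complement is GCGGCA). The hexamer is found in 3813 of 32851 RefSeq promoters of this length (11.61%), among them 1 of 2 promoters of Meg3, 1 of 2 of Grb10 and those of Nnat, Plagl1 and Zim1. The match is a description of the letters and not a measured binding site.
Meg3 promoter: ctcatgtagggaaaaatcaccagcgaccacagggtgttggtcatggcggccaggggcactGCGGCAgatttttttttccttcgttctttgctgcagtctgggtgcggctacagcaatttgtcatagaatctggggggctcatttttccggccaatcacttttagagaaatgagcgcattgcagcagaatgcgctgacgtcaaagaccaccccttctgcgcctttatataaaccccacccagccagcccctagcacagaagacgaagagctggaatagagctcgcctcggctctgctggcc

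After filtering, 97741 nuclei remained of 109826 barcodes, with 6387 to 17013 nuclei, 67205436 to 234811422 UMIs in all and a median of 6664 to 11276.5 UMIs per nucleus in each library. Any 2 libraries shared 21 to 146 barcodes. Nuclei were called female by Xist or male by Y-linked genes. Hippocampal libraries had 4922 female and 3456 male, and 7532 and 5025, at 3 months. At 21 months they had 3579 and 3330, and 2652 and 2563. Those of the caudate putamen had 4754 and 4024, and 6605 and 4153, then 6205 and 4027, and 7420 and 4280. Females outnumbered males in every library, and in the hippocampus more so at 3 months. Sums split by sex are among the alternatives below. Nuclei were clustered without the imprinted genes, and clusters were given "X-like" names from marker genes. The largest classes in the hippocampus were dentate granule-like (19326 nuclei), astrocyte-like (5535) and oligodendrocyte-like (5133), and in the caudate putamen D1 medium spiny-like (17754), D2 medium spiny-like (13883) and oligodendrocyte-like (12106). Unnamed clusters held 7.94% to 14.2% of the nuclei of a hippocampal library and 0.803% to 2.97% of those of a caudate putamen library. Levels below are in CPM (counts per 1000000 UMIs), from the UMIs summed over the nuclei of a class in a library, with means ± SD over 4 libraries of a region. The libraries are the replicates, and in the tests of age and region each p-value measures the spread between these pooled libraries. In the contrast of neurons and glia the classes of a library enter the same fit, with library as a block. The p-values of that contrast measure the spread left after class and library, with classes of the same 4 libraries as its units. A CPM is a share of the RNA of a class, so less of one transcript per nucleus and more of the others cannot be told apart. The class names are used below without "-like".

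Meg3 was high in the tested neuronal classes of both regions apart from dentate granule neurons, and neuroblasts, which were named in 2 hippocampal libraries and not tested, were as low (989 and 1452 CPM). Among hippocampal neurons its level was 7757 ± 254 CPM in interneurons (n = 4 libraries), 7687 ± 765 CPM in subiculum or entorhinal neurons, 5773 ± 396 CPM in CA1 pyramidal neurons and 4975 ± 239.6 CPM in CA3 pyramidal neurons. Dentate granule neurons had 1201 ± 91.5 CPM of Meg3, with 1143 and 1338 CPM at 3 months and 1157 and 1166 CPM at 21 months. The dentate libraries thus lay far below those of each other tested hippocampal neuron class, without overlap, and still above all hippocampal glial libraries. Caudate putamen interneurons led that region with 9225 ± 474 CPM of Meg3. Eccentric medium spiny neurons, a small striatal projection type, had 4697 ± 139.6 CPM, D1 medium spiny neurons 4435 ± 93.6 CPM and D2 medium spiny neurons 4134 ± 72.2 CPM. The libraries of these 4 neuronal classes did not overlap, although D1 and D2 neurons were separated by less than the gap to interneurons. Meg3 in glia was lower and uneven. It was 262 ± 179 CPM in astrocytes to 502 ± 159 CPM in OPCs (oligodendrocyte precursor cells) of the hippocampus, and 638 ± 171 CPM in astrocytes to 1084 ± 326 CPM in microglia of the caudate putamen, with neighbouring glial classes overlapping.

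Rian and Mirg, the other RNAs of the domain, were ordered over the classes in a similar way. Rian ranged from 162 ± 6.82 CPM in dentate granule neurons to 909 ± 29.4 CPM in subiculum or entorhinal neurons, and from 619.8 ± 70.9 CPM in eccentric medium spiny neurons to 929 ± 44.3 CPM in interneurons of the caudate putamen. Mirg was 24.0 ± 1.12 CPM in dentate granule neurons against 167 ± 9.18 CPM in hippocampal interneurons, and 118 ± 10.4 CPM in D2 neurons and 129.8 ± 12.1 CPM in D1 neurons. Rian and Mirg of D1, D2 and eccentric neurons overlapped, so the order of Meg3 among these 3 classes was not seen in its neighbours. Over the 84 sums of class and library, log2(CPM + 1) of Meg3 and Rian had a Pearson correlation of 0.99, and that of Rian and Mirg was 0.967. Among 10406 genes with a mean of at least 10 CPM, Rian was the gene most like Meg3, followed by Snhg11 (0.96) and Mirg (0.951). The sums share libraries and the split between neurons and glia, so these coefficients describe the pattern and carry no test.

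The amount of Rian relative to Meg3 varied between classes and between the regions, and these ratios were not tested. Per 100 UMIs of Meg3, D1 medium spiny neurons had 15.7 UMIs of Rian (14.3 to 17.0 over libraries) and dentate granule neurons 13.5, whereas caudate putamen interneurons had 10.1. The same glial class could differ by region, with 11.6 in hippocampal and 14.2 in caudate putamen oligodendrocytes, 11.9 and 14.3 in astrocytes and 10.9 and 14.0 in microglia, while OPCs had 15.5 and 15.1. Over the sums of class and library the ratio ran from 10.2 to 14.1 in hippocampal neurons (median 11.6 over 20 sums) and from 9.94 to 16.4 in hippocampal glia (median 11.9 over 16 sums). For the caudate putamen it ran from 8.93 to 17.0 in neurons (median 14.2 over 16 sums) and from 12.1 to 17.0 in glia (median 14.6 over 16 sums). Neurons and glia of a region therefore had overlapping ratios, although the levels of both RNAs differed severalfold. The ratio is of UMIs and is not corrected for the length of either transcript.

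Snhg14 was also neuronal, but its level varied less between neuron classes. It was 1139.8 ± 53.5 CPM in subiculum or entorhinal neurons, 1066 ± 38.3 CPM in hippocampal interneurons, 953 ± 19.2 CPM in CA1, 885 ± 27.5 CPM in CA3 and 704 ± 20.4 CPM in dentate granule neurons. The corresponding levels of Snhg14 in the caudate putamen were 1201 ± 114 CPM in interneurons, 857 ± 115 CPM in eccentric neurons, 736 ± 72.8 CPM in D2 and 710.1 ± 76.5 CPM in D1 neurons, the last 3 with neighbours overlapping. The hippocampal glial classes averaged 72.7 to 115 CPM and those of the caudate putamen 101 to 146 CPM, and no glial library reached a neuronal one. The genes most like Snhg14 over the 84 sums were Dlgap2 (Pearson 0.964), Grin1 (0.961) and Cacna1b (0.959).

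Grb10 was high in vascular nuclei and fibroblasts, intermediate in neurons and low in glia. In the hippocampus it was 203 ± 10.7 CPM in fibroblasts and 197 ± 23.9 CPM in endothelial nuclei, and in the caudate putamen 278 ± 63.7 CPM in pericytes or smooth muscle and 169 ± 62.6 CPM in endothelial nuclei. Among neurons, interneurons had 94.1 ± 13.3 CPM of Grb10 in the hippocampus and 153 ± 10.8 CPM in the caudate putamen, while CA1 neurons had 13.8 ± 2.31 CPM and CA3 neurons 16.5 ± 1.84 CPM. The pyramidal classes thus lay below dentate granule neurons (40.9 ± 8.38 CPM), the reverse of the order of Meg3. D1 and D2 medium spiny neurons had 65.2 ± 10.1 and 65.4 ± 10.8 CPM, with overlapping libraries. Glial classes averaged 3.37 to 6.75 CPM in the hippocampus and 7.44 to 9.71 CPM in the caudate putamen. The genes most like Grb10 were Sept11 (0.85), Rapgef4 (0.847) and Gm17276 (0.834).

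Peg3 was led by interneurons in both regions, at 240.3 ± 23.9 CPM in the hippocampus and 251 ± 33.4 CPM in the caudate putamen. Subiculum or entorhinal neurons had 216 ± 42.6 CPM, overlapping the interneurons. The remaining hippocampal neurons (61.4 to 73.2 CPM) lay at the level of astrocytes, which had 79.3 ± 13.4 CPM. D1 and D2 neurons had 109 ± 13.4 and 108 ± 14.4 CPM, above all glial classes (58.4 to 68.9 CPM). Over the 84 sums Peg3 was most like Scn9a (0.858), Gm47027 (0.82) and Dzank1 (0.82). Its neighbour Zim1 had another pattern, highest in astrocytes and OPCs. It was 15.1 ± 1.37 CPM in astrocytes of the caudate putamen, 7.99 ± 1.55 CPM in those of the hippocampus, and 7.09 ± 0.577 and 8.46 ± 1.73 CPM in OPCs. D1, D2 and eccentric medium spiny neurons had 0.334 to 0.356 CPM of Zim1, and no UMI of Zim1 was counted in hippocampal endothelial nuclei. Zim1 was most like Gfra1 (0.795), Hapln1 (0.767) and Ddhd1 (0.763).

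Nnat and Plagl1 were not neuronal in their order of classes. The rankings here cover classes with at least 20 nuclei in every library of their region. Nnat was highest in hippocampal fibroblasts, at 879 and 521 CPM in the 3-month libraries and 714 and 645 CPM at 21 months, followed by astrocytes (199 ± 18.1 CPM) and OPCs (161 ± 10.3 CPM), and the 3 classes did not overlap. Among such classes of the caudate putamen, OPCs (205 ± 34.3 CPM) and astrocytes (165 ± 42.2 CPM) led, and neurons had 58.0 to 84.8 CPM. Oligodendrocytes, the mature relatives of OPCs, had 22.6 ± 3.95 CPM of Nnat in the hippocampus and 28.8 ± 4.80 CPM in the caudate putamen. The pattern of Nnat was most like those of Bmp7 (0.818), Sulf1 (0.802) and Aldh7a1 (0.757). Plagl1 showed the opposite arrangement within that lineage. It was 36.9 ± 7.04 CPM in oligodendrocytes of the hippocampus (47.3, 31.7, 34.1 and 34.6 CPM by library) and 38.3 ± 0.678 CPM in those of the caudate putamen (37.7, 37.9, 39.2 and 38.3 CPM), against 2.80 and 3.58 CPM in OPCs. No other class with at least 20 nuclei in every library of its region overlapped the oligodendrocytes. Plagl1 was most like Kif1b (0.759), Insc (0.753) and Ddr1 (0.748).

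**Figure D1:**
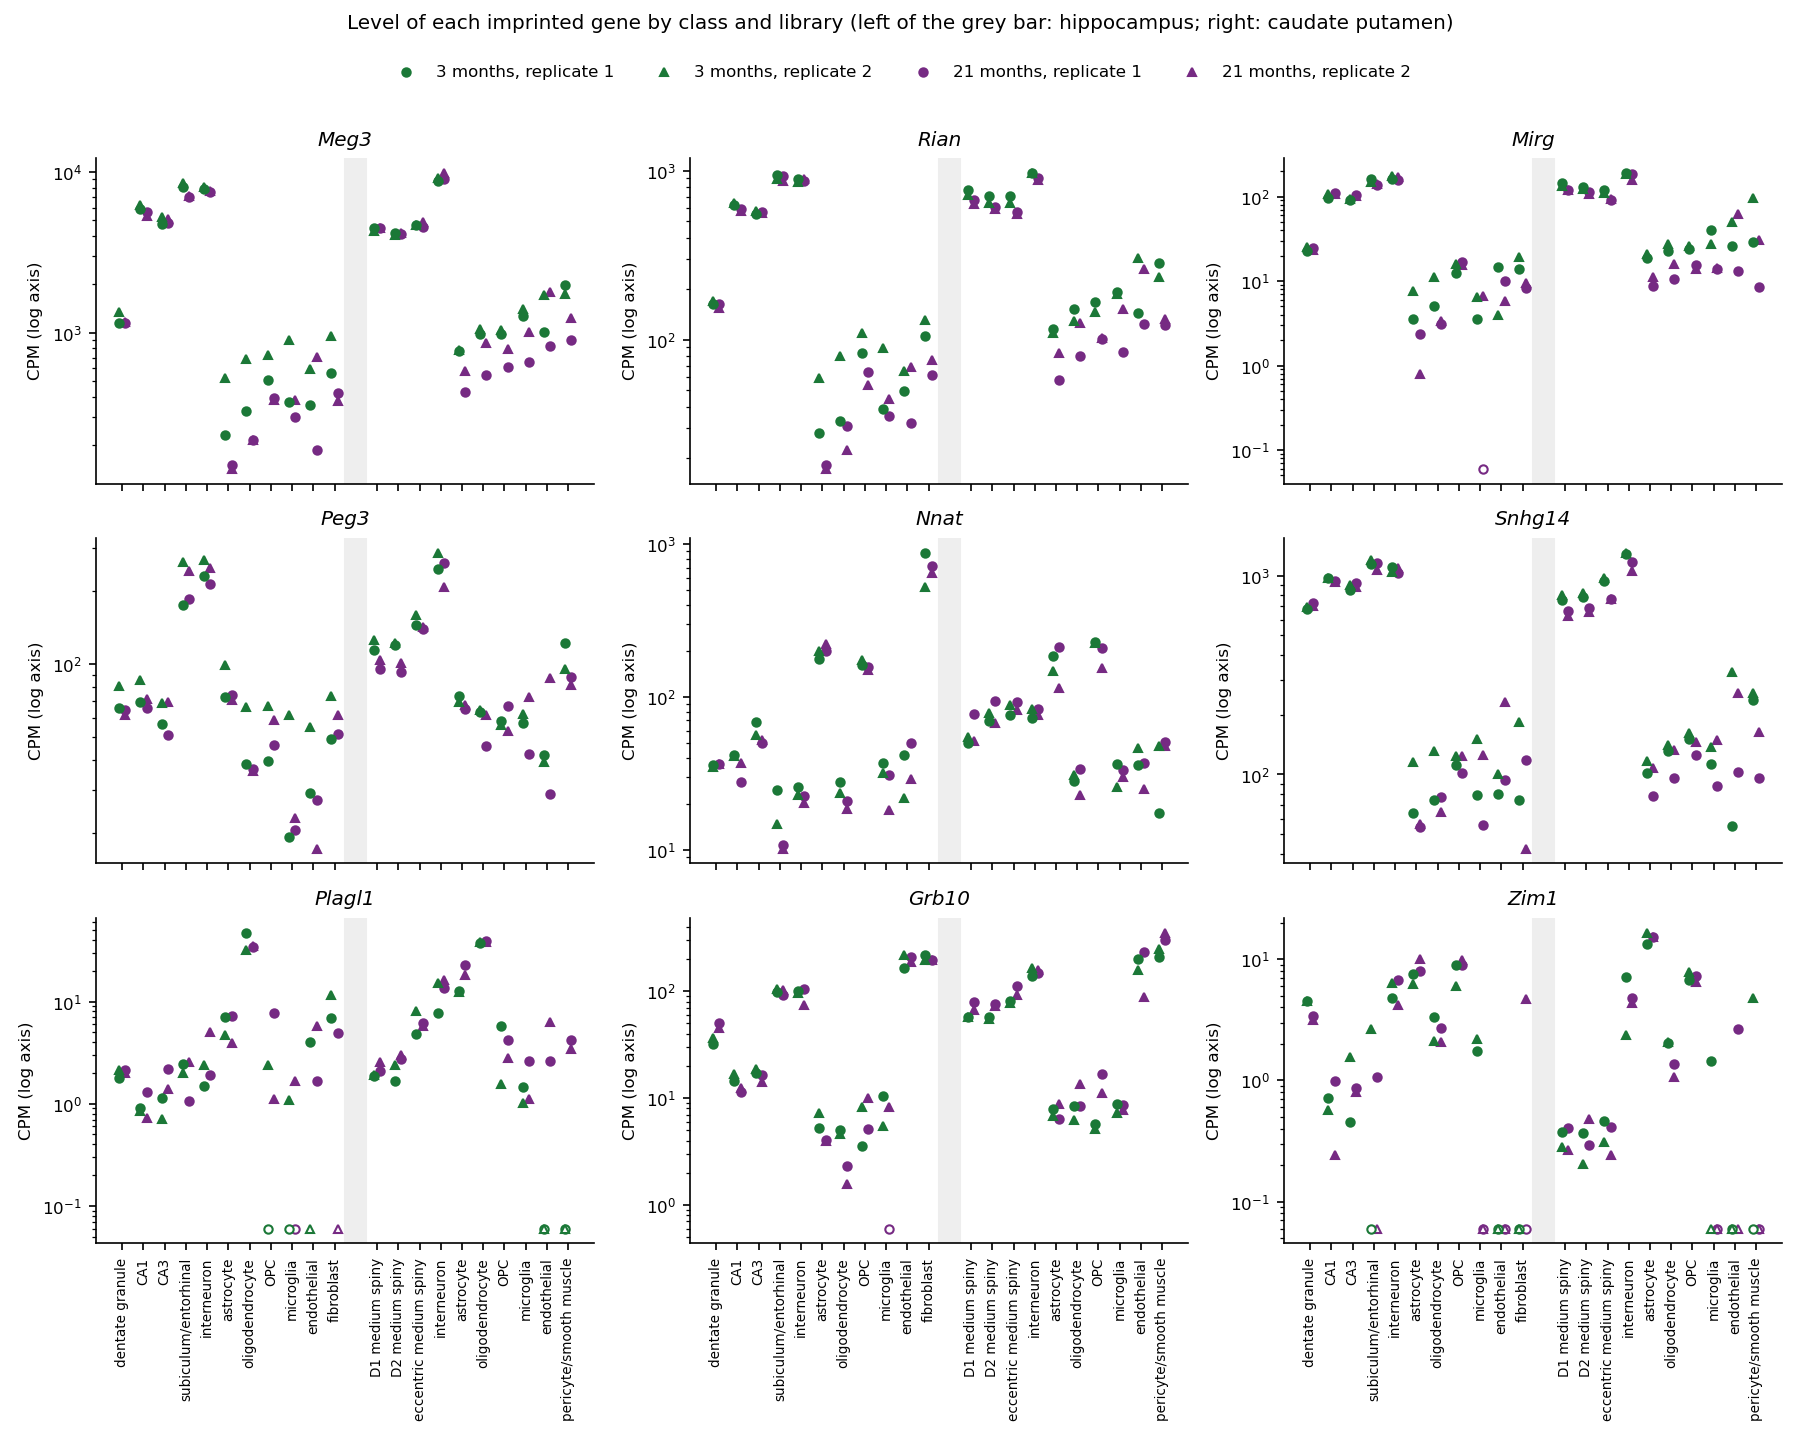
Level of each of the 9 imprinted genes (y axis, CPM on a log axis) by class (x axis), with 1 point per library coloured by region and age. Among classes with at least 20 nuclei in every library of their region, Meg3, Rian, Mirg and Snhg14 are highest in neuronal classes, with dentate granule neurons the lowest neurons for Meg3 (1201 CPM), and Plagl1 is highest in oligodendrocytes (36.9 and 38.3 CPM).

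The difference between neurons and glia was tested in each region as the mean over neuronal classes minus the mean over astrocytes, oligodendrocytes, OPCs and microglia, with library as a block (edgeR quasi-likelihood test over all genes, Benjamini-Hochberg adjusted). In the hippocampus 8 of 9 imprinted genes passed, 6 higher and 2 lower in neurons, beside 71.3% of all genes tested (35.8% higher, 35.5% lower). In the caudate putamen 8 of 9 passed, 7 higher and 1 lower, beside 75.6% of all genes (39.1% higher, 36.5% lower). So the share that passed was near the background, and the sizes are what the genes add. The median log2 fold change over the 9 genes was 3.26 in the hippocampus and 2.96 in the caudate putamen, against -0.03 and 0.00 over all genes tested. These values rest on TMM scaling. With UMI totals in its place, a scaling chosen after the data were seen, the median over all genes was -0.39 and -0.38, and of the genes called 31.6% and 32.4% were higher in neurons, beside 50.2% and 51.7% with TMM.

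Meg3 was 16.4-fold higher in neurons of the hippocampus (log2 fold change 4.04, SE 0.14, adjusted p 8.66e-29) and 8.44-fold higher in those of the caudate putamen (3.08, SE 0.10). Rian was 15.0-fold and 7.80-fold higher, and Mirg 18.5-fold and 9.05-fold higher. Snhg14 was 13.1-fold higher in hippocampal neurons and 9.17-fold higher in caudate putamen neurons. Grb10 was 9.59-fold and 13.7-fold higher, and Peg3 2.84-fold and 3.10-fold higher. The hippocampal fold of Peg3 is a mean over classes, and dentate granule, CA1 and CA3 neurons lay at the level of astrocytes. For these 6 genes the direction and the call held in all 8 alternatives tried and with UMI totals, but with doublets kept the folds of the first 5 were smaller by over 1.5 times. Meg3 was then 10.2-fold and 4.31-fold higher, Rian 9.23-fold and 3.92-fold, Mirg 9.85-fold and 4.16-fold, Snhg14 6.66-fold and 4.59-fold, and Grb10 5.23-fold and 5.68-fold. Nnat was lower in neurons of the hippocampus (log2 fold change -0.78, SE 0.09, adjusted p 9.87e-11), and with UMI totals it had -1.14. In the caudate putamen Nnat had 0.39 with TMM (SE 0.06, adjusted p 1.37e-07) but 0.01 with UMI totals (adjusted p 0.911), so no direction is given there. The neuronal classes of that region (58.0 to 84.8 CPM of Nnat) lay between OPCs and astrocytes above and microglia and oligodendrocytes (31.2 and 28.8 CPM) below. Plagl1 was lower in hippocampal neurons (-1.10, SE 0.46, adjusted p 0.0294). That call ended without replicate 2 of the hippocampus at 3 months (-1.01, adjusted p 0.17), and without replicate 1 or 2 at 21 months. Over 8 alternatives the adjusted p of Plagl1 ran from 6.85e-06 to 0.17. Among the hippocampal glia, oligodendrocytes had 36.9 CPM of Plagl1, astrocytes 5.77, OPCs 2.80 and microglia 0.687 CPM. Clusters of dentate granule neurons averaged 1.29 to 2.78 CPM, so neurons did not lie below every glial class. Plagl1 in the caudate putamen had a log2 fold change of -0.34 (adjusted p 0.157), and with UMI totals -0.72 (adjusted p 0.00594). Zim1 was lower in caudate putamen neurons (-1.55, SE 0.62, adjusted p 0.0232), but not without replicate 1 at 3 months (-0.69, adjusted p 0.95), and over 8 alternatives the adjusted p of Zim1 ran from 2.18e-07 to 0.95. Clusters of caudate putamen interneurons averaged 0.781 to 11.3 CPM of Zim1. The glia there had 15.1 CPM in astrocytes, 7.09 in OPCs, 1.64 in oligodendrocytes and 0.364 CPM in microglia. In the hippocampus Zim1 had -0.72 (SE 0.34, adjusted p 0.0531), and with UMI totals -1.09 (adjusted p 0.00614).

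**Figure D2:**
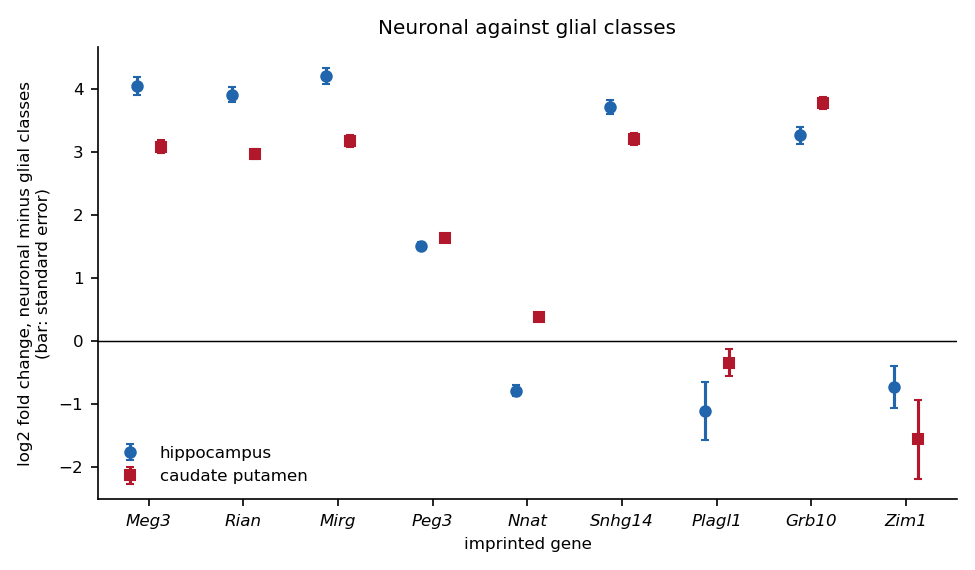
Log2 fold change between neuronal and glial classes (y axis) for each imprinted gene (x axis) in the hippocampus and the caudate putamen, with bars for the standard error. Meg3 lies at 4.04 and 3.08, whereas Nnat lies at -0.78 in the hippocampus and at 0.39 in the caudate putamen, the latter with TMM scaling and 0.01 with UMI totals.

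The other imprinted genes came from a list of 59 known in mouse, of which 58 were in the tables. In the hippocampus 44 of them were tested between neurons and glia, with 18 higher, 16 lower and a median log2 fold change of -0.05, and in the caudate putamen 47 were tested, with 25 higher, 14 lower and a median of 0.30. With UMI totals the counts were 15 higher and 26 lower (median -0.41) in the hippocampus and 20 higher and 19 lower (median -0.08) in the caudate putamen. Rtl1, a retrotransposon-derived gene of the Dlk1-Dio3 domain, was higher in neurons by 4.79 (log2) in the hippocampus and 3.64 in the caudate putamen, although reads from its maternal antisense RNA cannot be told apart from it. Ube3a, the ubiquitin ligase antisense to Snhg14, was higher by 2.58 and 2.12, and Snrpn, a small nuclear ribonucleoprotein gene of the same domain, by 1.78 and 1.93. Usp29, next to Peg3, was higher by 3.16 and 3.67. In contrast Ndn (necdin) was lower in neurons, at -0.40 and -0.41, and Mkrn3 was lower in the caudate putamen (-3.43). Phactr2, the neighbour of Plagl1, was lower in neurons at -2.72 and -4.37. Blcap, which contains Nnat, had 0.03 in the hippocampus (adjusted p 0.86) and 0.41 in the caudate putamen, but -0.34 and 0.03 with UMI totals (adjusted p 0.0068 and 0.66). Of the neighbours of Grb10, Ddc was lower in hippocampal neurons (-3.90) and had -1.32 in the caudate putamen (adjusted p 0.0503, and 0.0163 with UMI totals). Cobl was lower in hippocampal neurons (-1.40) and higher in caudate putamen neurons (1.23). Dlk1, Dio3, Zfp264, Snurf, Magel2 and Peg12 were not tested here. Away from these clusters the smallest adjusted p-values belonged to Gab1, a docking protein of receptor tyrosine kinases, at -5.77 and -4.74, to Cd81 in the hippocampus (-2.33) and to Rasgrf1 in the caudate putamen (2.28).

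Within classes, clusters differed in these genes although the genes had no part in forming them. The clusters named here were singled out after their values were seen and are a description with no test. D1 cluster 5 and D2 cluster 11, both led by Myo3b and Pde1c, had less Meg3 and more Nnat than the other clusters of their class. Meg3 was 3316 to 3648 CPM in D1 cluster 5 against 4452 to 5680.5 CPM in the other D1 clusters, and 3185 to 3433 CPM in D2 cluster 11 against 4223 to 5116 CPM. Nnat was 80.7 to 154 CPM against 34.9 to 67.7 CPM for D1, and 118 to 185 CPM against 46.3 to 73.1 CPM for D2. For both genes and both classes the ranges over libraries did not overlap. D1 cluster 7 and D2 cluster 8 came mostly from the replicate 1 libraries of both ages, which held 25.5% to 27.6% and 19.9% to 20.6% of their class there against 0.647% to 2.07% and 0.809% to 1.61% in the replicate 2 libraries.

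Among caudate putamen interneurons, cluster 18, led by Nos1, Lhx6 and Npy, stood apart in Plagl1. Its 4 libraries had 45.2 to 58.4 CPM of Plagl1 (53.6 ± 6.13), while those of the other interneuron clusters had at most 6.99 CPM. These few neurons (305 nuclei) thus lay above the oligodendrocytes of the same region. Nnat was also high there, at 166 to 266 CPM, as was Grb10, at 181 to 232 CPM, although interneuron cluster 13 overlapped it in Grb10 (149 to 193 CPM). In the dentate gyrus, cluster 12, led by Chst9 and Cnih3, had 737 to 1105 CPM of Meg3 and 28.0 to 34.6 CPM of Grb10, and its share of dentate granule nuclei was 26.5% and 34.3% at 3 months and 12.7% and 13.2% at 21 months.

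**Figure D3:**
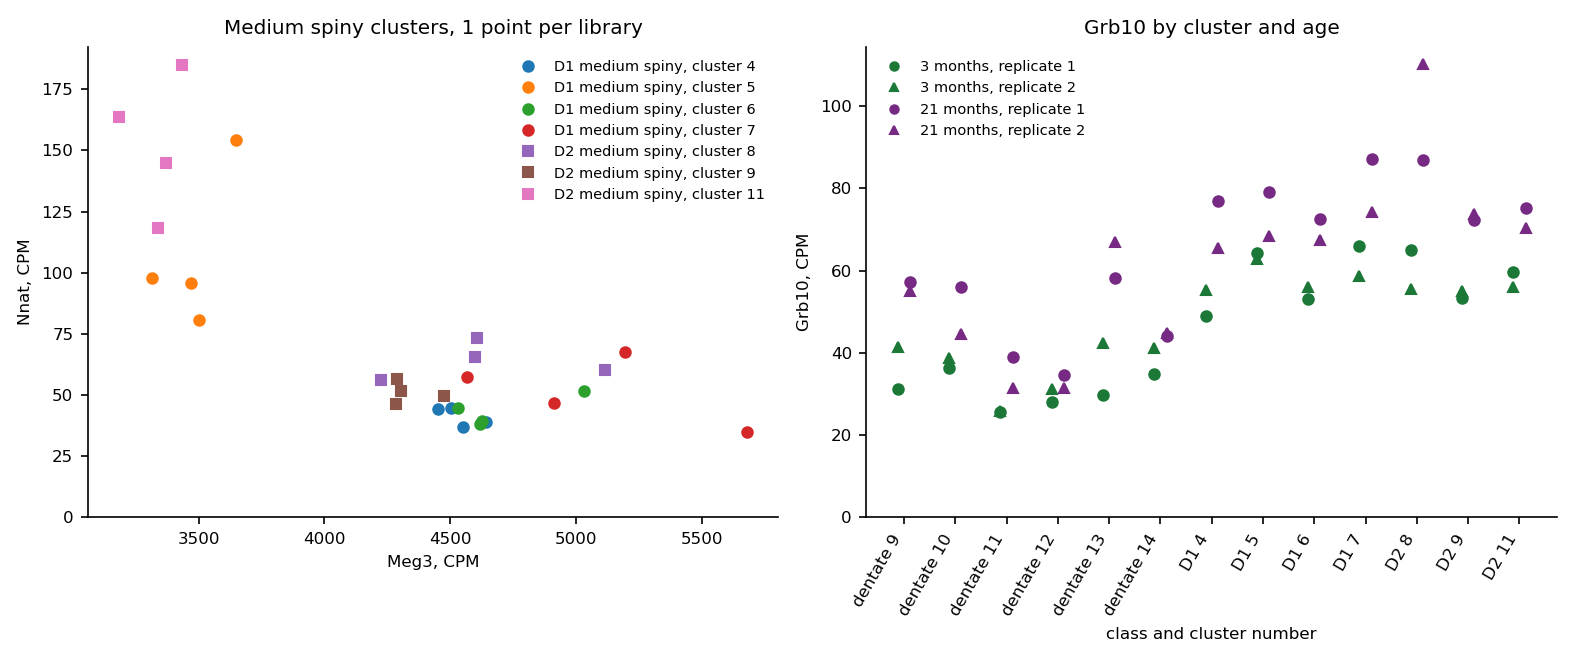
Left, Nnat against Meg3 (both in CPM) in clusters of D1 and D2 medium spiny neurons, with 1 point per cluster and library; right, Grb10 (CPM) by cluster in dentate granule, D1 and D2 neurons, coloured by age. D1 cluster 5 and D2 cluster 11 stand apart at low Meg3 and high Nnat, and in every cluster on the right both 21-month libraries lie above both 3-month libraries. The clusters of a class share libraries, and Snhg14, not shown, separates the ages downward in every D1 and D2 cluster.

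With age, Grb10 rose in dentate granule and D2 medium spiny neurons. In dentate granule neurons it was 31.8 and 36.3 CPM at 3 months and 50.3 and 45.2 CPM at 21 months, resting on 1517 to 3688 UMIs in each library. The age groups did not overlap, and the rise was 1.45-fold (log2 fold change 0.53, SE 0.08, edgeR quasi-likelihood adjusted p 0.00323), in a class where 2.34% of all genes passed as higher. Without replicate 1 at 21 months the log2 fold change was 0.46 with an adjusted p of 0.0665, and over 15 alternatives the adjusted p ran from 8.79e-10 to 0.0665. In D2 medium spiny neurons Grb10 was 57.1 and 55.2 CPM at 3 months and 76.1 and 73.2 CPM at 21 months, again without overlap. The rise was 1.31-fold (0.39, SE 0.06, adjusted p 0.022), beside 2.1% of all genes of the class. It missed the threshold when any 1 of the 4 caudate putamen libraries was left out, with log2 fold changes of 0.35 to 0.42, and over 15 alternatives the adjusted p ran from 4.28e-05 to 0.082.

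The other neuron classes gave Grb10 in part the same direction. D1 neurons had 58.0 and 57.3 CPM at 3 months and 78.9 and 66.5 CPM at 21 months (log2 fold change 0.31, adjusted p 0.145). Eccentric neurons had 82.0 and 78.2 CPM, then 111 and 92.1 CPM (0.34, adjusted p 0.312). In both classes the older libraries lay above the younger ones, but the differences did not pass the test in the main fit, and D1 neurons were not tested against D2 neurons. With the replicate number as a block Grb10 passed in D1 but not in eccentric neurons, in a setting that called 5.05% of all caudate putamen tests, beside 1.24% in the main fit. Interneurons had log2 fold changes of -0.06 in the hippocampus and 0.01 in the caudate putamen, and CA1 neurons had -0.31 (adjusted p 0.476). Split by cluster, both 21-month libraries lay above both 3-month libraries in 6 of 6 dentate granule, 4 of 4 D1 and 3 of 3 D2 clusters. Such separation was not particular to Grb10. Both older libraries lay below both younger ones for Snhg14 in 4 of 4 D1 and 3 of 3 D2 clusters. For Rian this was 3 of 4 and 3 of 3, and for Peg3 and Mirg 4 of 4 and 2 of 3. In dentate granule clusters it was 4 of 6 for Peg3 and Rian and 0 of 6 for Snhg14. The share over all genes was not counted. The clusters of a class come from the same libraries, so these counts are not replicates. With age, mean Grb10 went from 29.6 to 33.0 CPM in dentate cluster 12 and from 38.0 to 44.4 CPM in cluster 14. Clusters 9 and 10 went from 36.2 to 56.1 and from 37.4 to 50.4 CPM. Clusters 11 and 13 went from 25.7 to 35.3 and from 35.9 to 62.5 CPM. Cluster 10 held 14.9% to 17.1% of the class at 3 months and 33.45% to 39.4% at 21 months, while the share of cluster 12 fell. The part of these shares in the class-level rise was not tested.

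Peg3 fell in D2 medium spiny neurons. It was 119.7 and 121 CPM at 3 months and 92.1 and 101 CPM at 21 months, which is -0.34 on the log2 scale (SE 0.07, adjusted p 0.0366; 2.87% of all genes passed as lower there). The older libraries were the lower ones, without overlap. The call ended when any 1 of the 4 caudate putamen libraries was left out, and with sums split by the sex of the nuclei (-0.28, adjusted p 0.092). Over 15 alternatives the adjusted p of Peg3 in D2 neurons ran from 0.000309 to 0.142. In D1 neurons Peg3 was 114 and 126 CPM, then 94.9 and 103 CPM (-0.30, adjusted p 0.126), the same order but not past the threshold, which it passed with the replicate number as a block. Snhg14 had the same order in the caudate putamen, with 781 and 813 CPM at 3 months against 689.8 and 659 CPM at 21 months in D2 neurons (-0.26, adjusted p 0.108), and -0.29 in D1 neurons (adjusted p 0.148). Its log2 fold change was below 0 in 10 of 10 caudate putamen classes but in 5 of 11 hippocampal classes, and none passed in the main fit. With the replicate number as a block Snhg14 passed in D1, D2 and eccentric neurons. That setting, in which Peg3 passed in D1 neurons too, called 5.05% of all caudate putamen tests, beside 1.24% in the main fit. Rian (10 of 10 classes) and Mirg (9 of 9) were likewise below 0 throughout the caudate putamen, with 8 of 11 and 5 of 10 in the hippocampus. Grb10 was below 0 in 7 of 10 hippocampal and 1 of 9 caudate putamen classes. The classes of a region share its libraries, so these counts are not of independent observations. Meg3 gave log2 fold changes of -0.01 in D1 and 0.00 in D2 neurons.

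Over all classes, 2 of 82 tests of the 9 genes passed in the hippocampus, Grb10 (higher) in dentate granule neurons and Meg3 (lower) in OPCs, beside 0.989% of all tests (0.565% higher, 0.424% lower). In the caudate putamen 3 of 79 passed, Grb10 (higher) and Peg3 (lower) in D2 neurons and Meg3 (lower) in pericytes or smooth muscle, beside 1.24% of all tests (0.568% higher, 0.67% lower). The median log2 fold change was -0.08 in the hippocampus and -0.16 in the caudate putamen, against -0.01 and 0.00 over all genes. With UMI totals 43.3% of the hippocampal calls over all genes were higher, beside 57.1% with TMM. At an unadjusted p under 0.05 there were 15 and 27 tests of the 9 genes (18.3% and 34.2%), beside 11.1% and 13.3% of the tests of all genes. Classes share libraries, so the tests are not independent. Of the other imprinted genes, 6 of 385 hippocampal tests passed higher and 2 lower (4 and 3 with UMI totals), and 4 of 357 caudate putamen tests passed higher and 1 lower (5 and 1 with UMI totals). In the hippocampus the smallest adjusted p belonged to Cobl, an actin nucleator next to Grb10, which rose in dentate granule neurons by 1.50 (log2; SE 0.08, adjusted p 9.6e-07). Sfmbt2, a polycomb group gene, fell there (-0.50, adjusted p 0.0026), and Cobl also rose in oligodendrocytes of the hippocampus (0.74, adjusted p 0.017). In the caudate putamen Ddc (aromatic amino acid decarboxylase), the other neighbour of Grb10, rose in oligodendrocytes (0.94, adjusted p 0.0078), Slc22a18 in astrocytes (2.66, adjusted p 0.016) and Blcap in D2 neurons (0.40, adjusted p 0.026). Cobl also rose in oligodendrocytes of the caudate putamen (0.61, adjusted p 0.029).

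**Figure D4:**
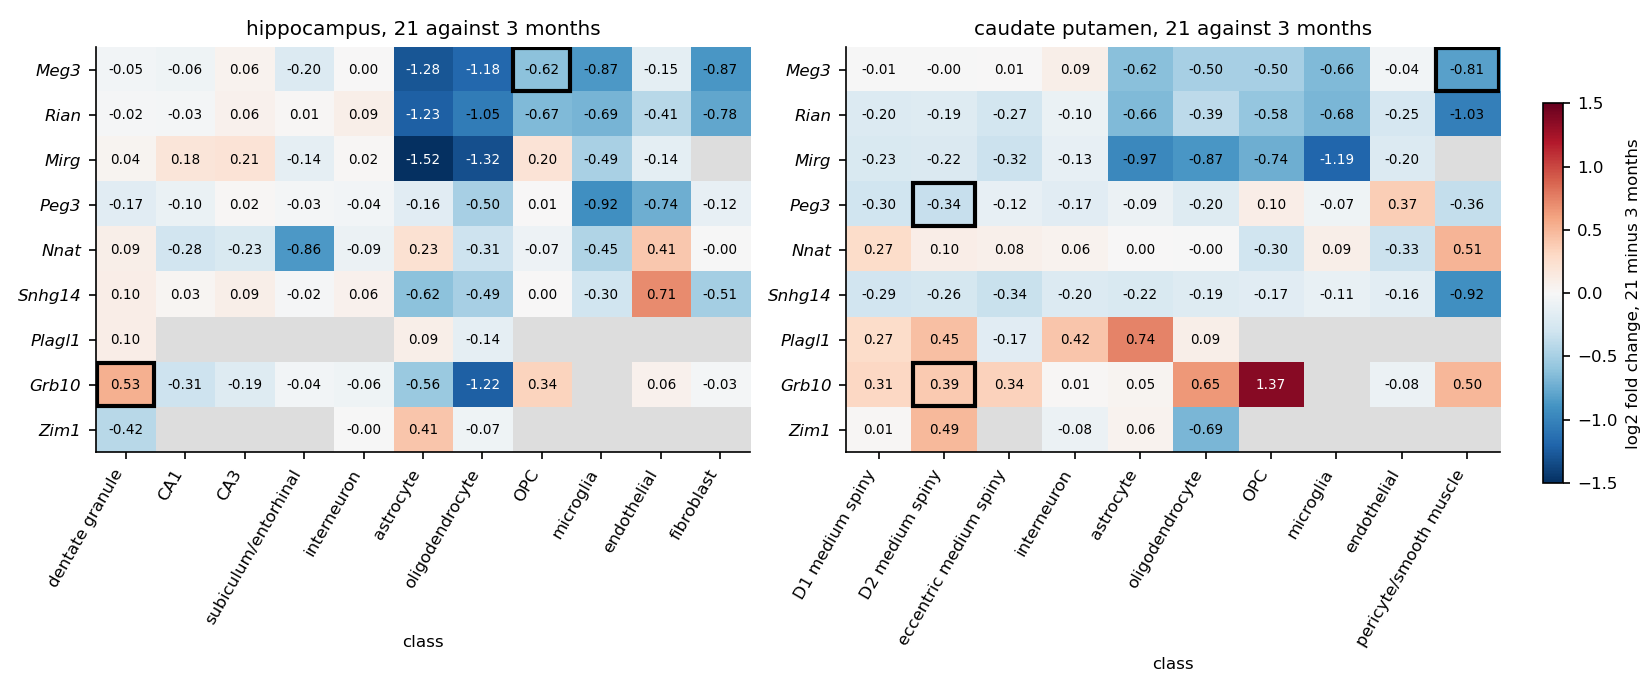
Log2 fold change at 21 against 3 months (colour and printed value) for each imprinted gene (rows) and class (columns) in the hippocampus and the caudate putamen. Grb10 is above 0 in dentate granule (0.53) and medium spiny neurons (0.31 to 0.39) but below 0 in 7 of 10 hippocampal classes. Snhg14, Rian and Mirg are below 0 in every caudate putamen class tested, 10, 10 and 9 classes, which share the same libraries.

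In glia the calls with age were of the maternal noncoding RNAs, and all were lower at 21 months. The age effect averaged over the regions was tested in astrocytes, oligodendrocytes, OPCs and microglia, and 4 of 31 tests of the 9 genes passed, all lower, beside 3.34% of all tests (1.2% lower, 2.13% higher). Of the calls over all genes 63.9% were higher with TMM and 52.0% with UMI totals. The median log2 fold change of the 31 tests was -0.34, against -0.01 over all genes. These classes share libraries, so the 31 tests are not independent. Rian in OPCs was 83.5 and 109.6 CPM at 3 months and 64.3 and 54.0 CPM at 21 months in the hippocampus, and 168 and 145 CPM against 100.4 and 102 CPM in the caudate putamen. The older libraries were lower in both regions (log2 fold change -0.63, SE 0.12, adjusted p 0.0018). This call held in all 14 alternatives, with log2 fold changes of -0.70 to -0.47 and adjusted p up to 0.0426. Meg3 in OPCs was 510.0 and 724 CPM, then 391 and 382 CPM, in the hippocampus and 985 and 1036 CPM, then 611 and 790.2 CPM, in the caudate putamen. The ages did not overlap within either region (-0.56, SE 0.10, adjusted p 0.00212), and the call ended when called doublets were kept (-0.31, adjusted p 0.20). Over 14 alternatives the adjusted p of Meg3 in OPCs ran from 3.09e-11 to 0.203.

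Mirg fell in astrocytes (log2 fold change -1.25, SE 0.28, adjusted p 0.0358) and in oligodendrocytes (-1.09, SE 0.25, adjusted p 0.0305). In astrocytes it was 3.55 and 7.62 CPM, then 2.39 and 0.792 CPM, in the hippocampus, and 18.5 and 20.8 CPM, then 8.74 and 11.3 CPM, in the caudate putamen. These levels rest on 3 to 85 UMIs of Mirg in a library. In oligodendrocytes Mirg was 5.04 and 11.1 CPM, then 3.14 and 3.38 CPM, and in the caudate putamen 22.6 and 27.2 CPM, then 10.4 and 16.02 CPM. Within each region the older libraries were lower in both classes. The astrocyte call held in 6 of 14 alternatives and ended without any 1 library other than replicate 1 of the hippocampus at 3 months, and with doublets kept (-0.66), with adjusted p from 2.03e-06 to 0.126. Without replicate 1 of the hippocampus at 21 months the value was -1.84. The oligodendrocyte call held in 8 of 14, with adjusted p from 4.03e-07 to 0.18, and ended without replicate 2 of the hippocampus at 3 months (-0.75), either hippocampal library at 21 months or either caudate putamen library at 3 months, and with doublets kept (-0.61). Meg3 had -0.84 in oligodendrocytes (adjusted p 0.0578) and -0.95 in astrocytes (adjusted p 0.161).

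In the hippocampus alone Meg3 fell in OPCs (-0.62, SE 0.14, adjusted p 0.0358). Without replicate 2 at 3 months the log2 fold change of Meg3 was -0.33 (adjusted p 0.52), and the call also ended without replicate 1 or 2 at 21 months, with doublets kept (-0.52) and with hippocampal libraries alone. Over 15 alternatives its adjusted p ran from 4.76e-06 to 0.524. In pericytes or smooth muscle of the caudate putamen Meg3 was 1991 and 1730.0 CPM at 3 months and 898 and 1235 CPM at 21 months (-0.81, SE 0.20, adjusted p 0.0428). The ages did not overlap, but the call held in 8 of 15 alternatives, with adjusted p from 0.000202 to 0.973. This class was fitted on the caudate putamen libraries alone. Leaving out a hippocampal library and using 1 region alone therefore repeat the main fit, and most of the 8 were of this kind. The call ended without replicate 1 at 3 months (-0.70), without replicate 1 at 21 months (-0.59), with doublets kept (-0.07), with coarser clusters (-0.61), with sums split by sex (-0.55), with DESeq2 and with the replicate numbers as a block.

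The difference between the age effects of the regions was tested in the same 4 glial classes. None of the 31 tests of the 9 genes passed with edgeR, beside 0% of all genes. At an unadjusted p under 0.05 there was 1 of 31 tests of the 9 genes (3.23%) and 2949 over all genes (5.85%), and DESeq2 called 11 genes, none of the 9. Of the other imprinted genes, 10 of 143 tests of the mean age effect passed higher and 2 lower (9 and 4 with UMI totals), beside 2.13% and 1.2% of the tests of all genes, with a median of -0.04. Those with the smallest adjusted p were Cobl in oligodendrocytes (0.67, adjusted p 0.0012), Sfmbt2 in OPCs (-1.22, adjusted p 0.0018) and Ddc in oligodendrocytes (0.74, adjusted p 0.0025). Among the neighbours, Snrpn fell in oligodendrocytes (-0.41, adjusted p 0.033), Phactr2 rose in astrocytes (0.34, adjusted p 0.019) and Cobl had 0.27 in OPCs (adjusted p 0.044, and 0.12 with UMI totals).

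Between the regions, 13 of 31 tests of the 9 genes in glia passed, all higher in the caudate putamen, beside 12.3% of all tests (7.01% higher, 5.26% lower). The log2 fold change was above 0 in 28 of 31 tests, with a median of 0.53 against -0.01 over all genes. The noncoding RNAs of the Dlk1-Dio3 domain gave 10 of the 13. The classes share the same libraries and these RNAs vary together, so the counts are not of independent observations. In oligodendrocytes Meg3 was 326, 688, 215 and 216 CPM in the hippocampal libraries (3 months, then 21 months) and 989, 1062, 544 and 859.7 CPM in those of the caudate putamen. Hippocampal replicate 2 at 3 months was the only one to reach the caudate putamen range. Meg3 was 2.52-fold higher in the caudate putamen (log2 fold change 1.33, SE 0.21, adjusted p 0.00376). In OPCs it was 1.67-fold higher (0.74, SE 0.10, adjusted p 2.56e-05), and both calls held in all 14 alternatives, although with doublets kept the values were 2.66 in oligodendrocytes and 1.48 in OPCs. In astrocytes it was 231, 523, 150.2 and 143 CPM against 771, 781, 426 and 574 CPM (1.38, SE 0.28, adjusted p 0.0266), but this call held in only 6 of 14 alternatives, with adjusted p from 4.13e-09 to 0.0926. It ended without each library except the hippocampal ones at 3 months, without the filter on low counts and with the replicate block, and with doublets kept the value was 2.00. In microglia Meg3 was not past the threshold (1.18, adjusted p 0.206).

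Rian was higher in caudate putamen astrocytes by 1.65 (log2; SE 0.26, adjusted p 0.00751), in oligodendrocytes by 1.59 (SE 0.25, adjusted p 0.00357) and in OPCs by 0.68 (SE 0.12, adjusted p 0.000173). In astrocytes Rian was 28.1, 59.4, 18.1 and 17.2 CPM in the hippocampus and 115, 109.9, 57.8 and 83.6 CPM in the caudate putamen, so 1 hippocampal library overlapped the other region. The oligodendrocyte call of Rian ended with the replicate block (1.72, adjusted p 0.11), and over 14 alternatives its adjusted p ran from 1.01e-57 to 0.106. With doublets kept Rian had 2.91 in oligodendrocytes and 1.57 in OPCs. In microglia Rian was higher by 1.52 (SE 0.28, adjusted p 0.0157), but with doublets kept the value was -0.06 (adjusted p 0.92). That call also ended without either hippocampal library at 21 months or either caudate putamen library at 3 months, and its adjusted p ran from 7.63e-19 to 0.918. Mirg was higher in astrocytes by 2.08 (SE 0.28, adjusted p 0.000192) and in oligodendrocytes by 1.76 (SE 0.24, adjusted p 0.000746), and both held in all 14 alternatives, with 2.68 in astrocytes without replicate 1 of the hippocampus at 21 months and 3.27 in oligodendrocytes with doublets kept. In microglia Mirg was higher by 2.25 (SE 0.46, adjusted p 0.00454), on 0 to 6 UMIs in a hippocampal library, and with doublets kept the value was 0.04 (adjusted p 0.95; range over 13 alternatives 1.4e-05 to 0.946). It was 4.68 without replicate 2 of the hippocampus at 21 months and 3.60 with the replicate block. In OPCs Mirg had 0.29 (adjusted p 0.657).

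The remaining 3 region calls were Plagl1, Zim1 and Grb10. Plagl1 in astrocytes was 7.11, 4.72, 7.29 and 3.96 CPM in the hippocampus and 12.6, 12.4, 22.9 and 18.3 CPM in the caudate putamen. The regions did not overlap (1.40, SE 0.21, adjusted p 0.000247, 2.64-fold). Zim1 in astrocytes was 7.62, 6.29, 8.01 and 10.0 CPM against 13.3, 16.6, 15.2 and 15.4 CPM, again without overlap (0.91, SE 0.16, adjusted p 0.00119, 1.88-fold). Both calls held in all 14 alternatives. In oligodendrocytes the log2 fold change of Plagl1 was 0.03 and that of Zim1 -0.69 (adjusted p 0.179), so the astrocyte calls had no counterpart there, and the difference between the classes was not tested. Grb10 in oligodendrocytes was 5.04, 4.58, 2.30 and 1.56 CPM in the hippocampus, on 6 to 26 UMIs, and 8.45, 6.17, 8.39 and 13.7 CPM in the caudate putamen (1.51, SE 0.26, adjusted p 0.00225). The call of Grb10 ended with the replicate block (1.24, adjusted p 0.094), with doublets kept its value was 3.26 (adjusted p 4.4e-08), and over 14 alternatives its adjusted p ran from 8.80e-10 to 0.0944. Snhg14, Nnat and Peg3 had no region call in glia, with log2 fold changes of Snhg14 from 0.23 to 0.51 (adjusted p 0.0823 to 0.853). Of the other imprinted genes, 26 of 143 tests passed higher and 8 lower (all genes, 7.01% and 5.26%), with a median of 0.03. Those with the smallest adjusted p were Zdbf2 (2.30) and Sfmbt2 (1.77) in astrocytes and Adam23 in microglia (2.44). Of the neighbours, Rtl1 was higher in oligodendrocytes (2.74) and astrocytes (2.23) of the caudate putamen, Usp29 in oligodendrocytes (1.36) and microglia (1.26), and Snrpn in oligodendrocytes (0.78), astrocytes (0.77) and OPCs (0.76). Cobl was higher in astrocytes (2.37) and microglia (2.16) of the caudate putamen, and Phactr2 in astrocytes (0.23).

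Neuronal transcripts were present in the glial sums and are given here beside the glial results of Meg3, Rian, Mirg and Grb10. The summed level of 6 pan-neuronal genes (Snap25, Rbfox3, Syt1, Kcnip4, Celf4 and Map2) was 1232, 2112, 1205 and 1029 CPM in hippocampal astrocytes and 1408, 1380.4, 1279.7 and 1461 CPM in those of the caudate putamen. In OPCs it was 1706 and 2019.7 CPM at 3 months and 1869.8 and 1263 CPM at 21 months in the hippocampus, and 1244 to 1571 CPM in the caudate putamen. These sums include Map2, whose level in astrocytes was 105% of that in dentate granule neurons and 141% of that in D1 and D2 neurons, and in OPCs 133% and 147%. The other 5 genes summed to 701, 1526, 623 and 499.9 CPM in hippocampal astrocytes and 648 to 899 CPM in those of the caudate putamen. Hippocampal replicate 2 at 3 months, which had the most Meg3 in all 4 hippocampal glial classes, also had the highest sum in astrocytes, oligodendrocytes and OPCs, with or without Map2. It was also the only library whose doublets were called by the expected share and not by the automatic threshold. None of the 6 genes was at 0 in any glial sum. None passed in any glial comparison, but Snap25 in OPCs lay at the edge for the mean age effect (-0.34, SE 0.10, edgeR adjusted p 0.0503). It had -0.33 in the hippocampus and -0.36 in the caudate putamen. In that comparison 5 of the 6 genes were below 0 in OPCs and 1 above. Their median log2 fold change between the regions was 0.38 in oligodendrocytes, 0.31 in astrocytes, 0.00 in OPCs and 0.11 in microglia, and that of the mean age effect was -0.19 in oligodendrocytes, -0.42 in astrocytes, -0.12 in OPCs and 0.17 in microglia. In the hippocampus alone the age effect had a median over the 6 genes of -0.98 in astrocytes (5 of 6 below 0), -0.59 in oligodendrocytes (6 of 6 below 0), -0.15 in OPCs (6 of 6 below 0) and 0.12 in microglia (2 of 6). The 10 dentate granule markers had medians there of -0.98 in astrocytes (9 of 10 below 0), -0.58 in oligodendrocytes (7 of 10), 0.04 in OPCs (4 of 9 tested) and 0.23 in microglia (3 of 9). The hippocampal log2 fold changes with age of Meg3 and Mirg did not pass in astrocytes (-1.28 and -1.52, adjusted p 0.271 and 0.159) or oligodendrocytes (-1.18 and -1.32, adjusted p 0.113 and 0.151). In the caudate putamen alone the 6 genes had 0.00 in astrocytes, 0.11 in oligodendrocytes, -0.05 in OPCs and 0.17 in microglia, and the D1 and D2 neuron markers had -0.05 in astrocytes, -0.03 in oligodendrocytes, 0.13 in OPCs and -0.23 in microglia, with 9 to 15 of 16 tested. None of these markers passed with age. Markers of the main neurons, 10 of dentate granule and 16 of D1 and D2 neurons, summed to 413 to 728 CPM in astrocytes of the hippocampus and 391 to 566 CPM in those of the caudate putamen, with at most 1 of them at 0. In oligodendrocytes they summed to 4389 to 4749 CPM in the hippocampus and 393 to 561 CPM in the caudate putamen. Meg3 in hippocampal glia was 21.1% (astrocytes) to 41.3% (OPCs) of its level in dentate granule neurons, and in caudate putamen glia 14.8% (astrocytes) to 25.2% (microglia) of that in D1 and D2 neurons. The corresponding shares of the 5 pan-neuronal genes other than Map2 ran from 2.46% (Rbfox3) to 34.0% (Snap25) and from 3.75% (Rbfox3) to 38.2% (Snap25). Dentate granule neurons had the least Meg3 of the tested hippocampal neurons. The Meg3 shares of hippocampal glia would therefore be smaller against the other tested neurons. Whole hippocampal libraries had 3085 and 3105 CPM of Meg3 at 3 months and 2339 and 2513 CPM at 21 months. Whole caudate putamen libraries had 4232 and 4066 CPM, then 3878 and 4096 CPM. Rian was 366 and 350 CPM, then 284 and 296 CPM, in the hippocampus, and 681 and 640 CPM, then 553 and 557 CPM, in the caudate putamen. The part of these whole-library levels in the glial results was not tested. Of the markers, 2 of 10 in the hippocampus (C1ql2 and Dock10) and 10 of 16 in the caudate putamen reached the neuronal level in at least 1 glial class. These include genes well above the neuronal level in a glial class, Eya1 (up to 2450%), Dock10 (276%) and Grik3 (147%). The counts and sums of markers are therefore no measure of neuronal RNA in glia. Among the markers Tac1 was at 89.2% to 201% of its level in D1 and D2 neurons over the 4 glial classes, Penk at 69.9% to 161% and Gpr6 at 119% to 246%, whereas Ankk1 was at 1.79% to 5.62%, Drd2 at 7.73% to 17.3% and Isl1 at 14.0% to 47.5%. Gpr6 alone of the 16, and none of the 10 in the hippocampus, where Trpc6 was at 3.40% to 7.64%, reached the neuronal level in all 4 glial classes. The part of neuronal RNA in the glial results was not tested.

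**Figure D5:**
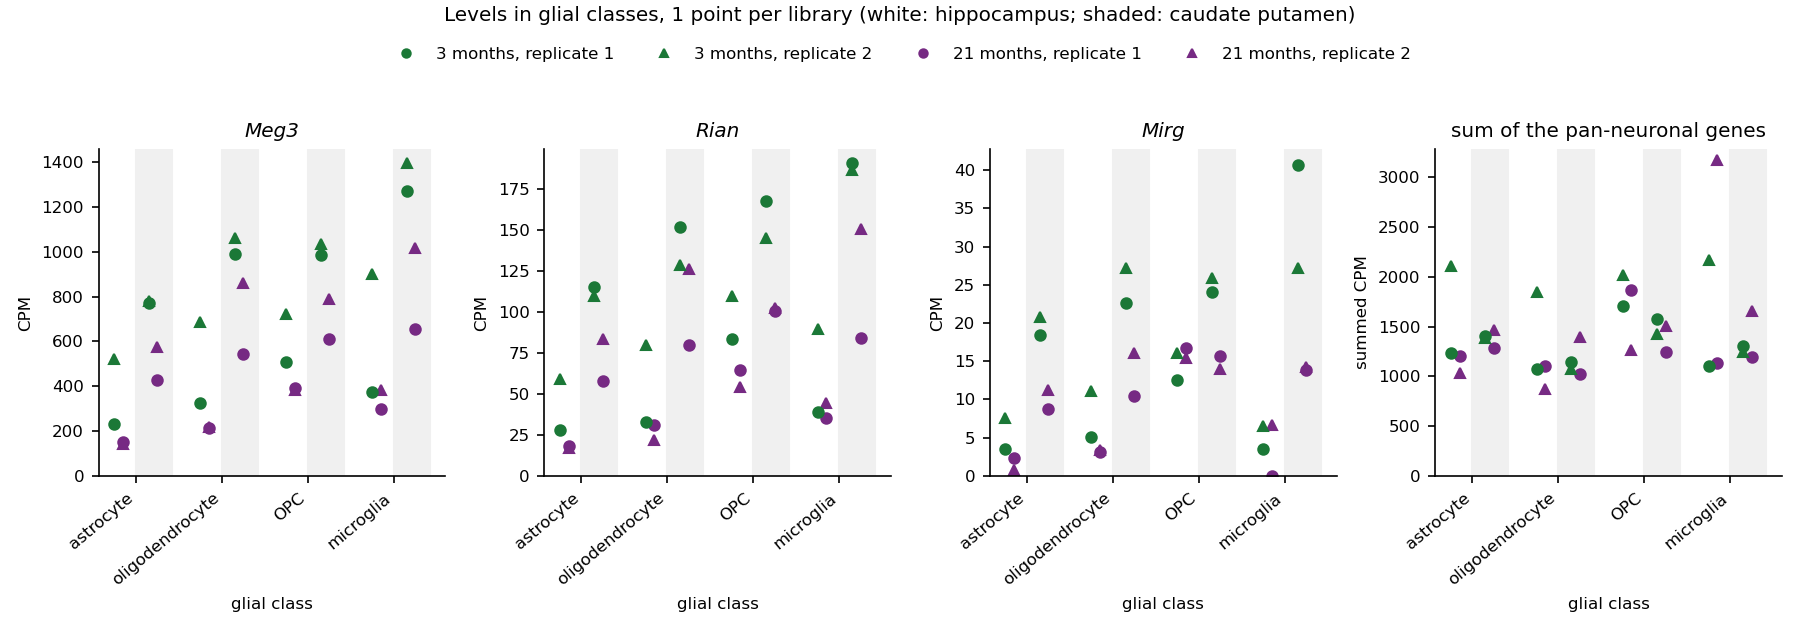
Levels of Meg3, Rian and Mirg, and the sum of the 6 pan-neuronal genes (y axes, CPM), in glial classes with 1 point per library, hippocampus on white and caudate putamen on shaded ground. Meg3 in oligodendrocytes lies at 215 to 688 CPM in the hippocampus and 544 to 1062 CPM in the caudate putamen, and the summed neuronal genes of that class lie at 869 to 1848 CPM and 1022 to 1398 CPM, so both pairs of ranges overlap.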

How the data were processed

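The deposited files are UMI count matrices of single nuclei, 1 for each of 8 libraries. The submitters' processing notes name mm10 and Cell Ranger 4.0.0, whereas the file headers name Cell Ranger 6.1.2 in 7 libraries and 7.0.0 in the caudate putamen library of 3 months, replicate 2, and the labels give the 10x v3.1 chemistry. Whether reads in introns or on the opposite strand were counted is not given in the sources used here.

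Nuclei with under 500 genes (1307), over 5% mitochondrial UMIs (4) or a doublet call by Scrublet within scanpy 1.11.5 (10775, or 2.55% to 15.6% of a library) were left out. The automatic doublet threshold was used in 7 libraries, and in replicate 2 of the hippocampus at 3 months, where it called over 3 times the expected 16.2%, the expected share was used. Each region was clustered on 3000 variable genes without the imprinted genes (40 principal components, 20 neighbours, Leiden resolution 1). Clusters were named from fixed markers. The naming rules were revised more than once with cluster tables in view, before any expression test. Counts were summed per library and class with at least 20 nuclei and tested over all genes with edgeR 4.0.16 (TMM, filterByExpr, robust quasi-likelihood fit, 1 mean per group; library and class in the contrast of neurons and glia), at a Benjamini-Hochberg adjusted p of 0.05. Neuronal classes used the 4 libraries of a region, glial classes all 8. The fit was also run on artificial counts with known changes. Of its calls there, 10.2% were false for dentate granule neurons, 19.3% for D1 neurons and 4.32% for oligodendrocytes. Of the changes of 1 on the log2 scale, 82.8%, 57.1% and 82.5% were recovered. The adjusted p of 0.05 is therefore a nominal threshold in these 2 neuron classes, and D2 neurons were not part of that run.

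The 9 genes and the other lists were chosen with earlier results of these data known, and the 6 pan-neuronal genes were chosen after the files were seen. Named in the text are all 9 genes, up to 3 other imprinted genes with the smallest adjusted p in each result, all 16 listed neighbours where tested, and the 3 genes most correlated with each of the 9. Positions are from GENCODE vM21. Alternatives were DESeq2 1.42.0, no filter on low counts, doublets kept, Leiden resolution 0.5, each library left out, a replicate block, 1 region alone and sums split by sex. In the last, the female and male sums of a library entered as separate columns, with sex as a covariate and no library block. Its p-values therefore treat sums of the same library as independent, and its larger counts of calls are to be read with that limit. For classes fitted on 1 region, leaving out a library of the other region and using 1 region alone repeat the main fit. Scaling by UMI totals without TMM was added after the data were seen.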

Additional observations from a re-analysis of the deposited data

How the results depend on the processing

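Of 440 recomputed values of single genes, 383 kept their direction and side of the threshold, 56 kept the direction and lost the call, and 1 reversed, Rian in microglia between the regions with doublets kept (log2 fold change -0.0617). Part of the 383 could not change, because the class was fitted on 1 region and the library left out was from the other. The counts of calls among the 9 genes moved more. Each count is followed by the share of all tests called under the same setting. In the hippocampus with age, 2 calls (0.989%) became 11 without the filter on low counts (2.20%), 1 with doublets kept (0.999%), 1 with hippocampal libraries alone (0.899%), 5 with sums split by sex (3.06%) and 0 to 12 with 1 library left out: 12 without replicate 1 (3.87%) and 1 without replicate 2 of the hippocampus at 3 months (0.983%), 0 without replicate 1 (0.301%) and 1 without replicate 2 at 21 months (0.454%). In the caudate putamen with age, 3 calls (1.24%) became 10 without the filter (2.17%), 5 with its own libraries alone (1.34%) and 0 to 8 with 1 library left out: 8 without hippocampal replicate 1 (1.58%) or 2 at 3 months (1.61%), 1 without caudate putamen replicate 1 (0.629%) or 2 at 3 months (0.423%), 0 without replicate 1 at 21 months (0.416%). The 4 calls of the mean age effect in glia (3.34%) became 10 without the filter (4.54%), 10 with sums split by sex (7.84%), 1 with doublets kept (1.70%) and 2 to 13 with 1 library left out, with 13 without replicate 1 of the hippocampus at 3 months (7.49%) and 2 without either hippocampal library at 21 months (1.08% and 1.46%) or either caudate putamen library at 3 months (1.68% and 1.38%). For the difference of age effects, 0 calls (0%) became 3 without the filter (0.713%) and 0 to 1 with 1 library left out (0% to 0.348%). The 13 region calls (12.3%) became 23 with doublets kept (27.1%) and 11 to 19 with 1 library left out (8.29% to 13.7%). Between neurons and glia, 8 calls (71.3%) became 7 to 8 in the hippocampus (65.0% to 68.9%) and 8 calls (75.6%) became 7 to 9 in the caudate putamen (69.7% to 72.4%) with 1 library left out. With UMI totals in place of TMM, chosen after the data were seen, 37 of 38 values kept their direction and call, and Nnat between neurons and glia of the caudate putamen lost its call (0.01, adjusted p 0.911). The cause of these moves was not tested.

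The labels do not say that replicate numbers mark a shared litter or day. The correlation of the deviations of same-numbered libraries was -0.19 to 0.26 over hippocampal classes and 0.02 to 0.41 over caudate putamen classes, with 2 pairs per region. With the replicate number as a block, the calls were 11 in the caudate putamen with age (5.05% of all tests), 3 in the hippocampus (2.24%), 7 for the mean age effect (4.42%) and 13 between the regions (7.87%). The 11 were Peg3, Snhg14 and Grb10 in D1 and D2 neurons, Mirg in D2 neurons, Snhg14 in eccentric neurons, Meg3 in microglia and OPCs and Rian in OPCs. In many classes Zim1 and Plagl1, though not Plagl1 in oligodendrocytes, rest on few UMIs, as do Mirg and Grb10 in glia, which limits their precision.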

Other observations

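Small classes outside the tests added values to the pattern of Nnat, Plagl1 and Grb10, given here with their UMI counts and no test. Ependymal nuclei, which line the ventricles, were found in the replicate 1 libraries of the caudate putamen, and Nnat there was 808 CPM (187 UMIs in 38 nuclei) at 3 months and 665 CPM (61 UMIs in 15 nuclei) at 21 months, as high as in hippocampal fibroblasts. Choroid plexus nuclei of the same 2 libraries had 52.2 CPM (34 UMIs) and 47.9 CPM (25 UMIs) of Plagl1 at 3 and 21 months, and 218 CPM (142 UMIs) and 247 CPM (129 UMIs) of Grb10. Neuroblasts, the immature granule neurons of the hippocampus, were named in the 3-month libraries alone, where 85 and 127 nuclei were found. They had 989 and 1452 CPM of Meg3, 272 and 182 CPM of Nnat and 5.20 and 4.92 CPM of Grb10, the last on 3 and 5 UMIs, beside 31.8 and 36.3 CPM of Grb10 in dentate granule neurons of the same libraries.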
